A study of Homo sapiens with 18 samples.

Results

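WM2664 is an established human melanoma cell line with a BRAF mutation, and its transcript response to the compound A-485 was measured on 6 of the 18 Affymetrix expression arrays of the series. The 6 arrays were chosen by the cell line named in the sample titles. Cells grown in RPMI medium with fetal bovine serum were treated with A-485 for 24 h (1 array), with the solvent DMSO for 24 h (2 arrays), with A-485 for 6 h (1 array) or with DMSO for 6 h (2 arrays). The labels give 3 mM as the dose of A-485, a unit that was not checked here, and they do not say whether the DMSO replicates were separate cultures. The other lines, SKMEL5 and A375, had the same layout with 6 arrays each. They entered the fit so that all 6 DMSO pairs could give the spread between replicates.

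A-485 occupies the acetyl-CoA pocket of the coactivators p300 (EP300) and CBP (CREBBP) and inhibits their acetyltransferase domain. Transcription factors recruit these acetyltransferases to enhancers and promoters, where they acetylate lysines of histones and of other proteins. MITF, which the title of the series names, is a helix-loop-helix transcription factor on which melanocyte identity depends. It drives pigment genes, survival genes and cell cycle genes in melanoma cells, and its own gene is controlled by SOX10, PAX3 and other lineage factors.

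Values are normalized intensities on a linear scale with a floor of 32, and differences are log2, A-485 minus DMSO of the same time, ± SE. A gene was called where limma gave an adjusted p (Benjamini-Hochberg over all 14130 genes tested) under 0.05. The A-485 arrays had no replicate, so their spread was taken to be that of the DMSO pairs, which may be technical, and p-values rest on that spread alone. The paired DMSO arrays of WM2664 correlated across genes at 0.993 (24 h) and 0.994 (6 h), with a median gap of 0.08 between replicates. The median SE of a difference was 0.13. Where a pair of differences of a gene stands without times, the first is at 24 h and the second at 6 h.

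The 6 arrays carried the melanocyte program that the line is known for. The summed intensity of 9 melanocyte markers was 18900 with A-485 against 35100 and 35600 with DMSO at 24 h, and 22700 with A-485 against 33000 and 33900 with DMSO at 6 h. Keratinocyte and leukocyte markers were at the floor on all 6 arrays for 6 of 9 genes in each list, and the fibroblast genes COL3A1 and PDGFRA were at the floor as well, as 2 of 8. The summed fibroblast markers were 6750 with A-485 against 4980 with DMSO at 24 h and 4320 with A-485 against 4710 to 4730 with DMSO at 6 h. The keratinocyte sum was 2730 with A-485 against 2580 to 2770 with DMSO at 24 h, and 3040 with A-485 against 2750 to 2810 with DMSO at 6 h. The leukocyte sum lay between 297 and 334 on all arrays. In bulk samples, fewer cells of a type and less RNA per cell cannot be told apart. Transcripts of another line were seen on 3 DMSO arrays. Genes particular to SKMEL5 stood at 1.9% of their SKMEL5 level on the first WM2664 DMSO array of 6 h, and genes particular to A375 stood at 0.882% of their A375 level on the second WM2664 DMSO array of 24 h. On the first A375 DMSO array of 6 h, SKMEL5 genes stood at 0.792%. These 3 arrays are called the doubtful DMSO arrays below, and counts are given with and without them.

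With A-485, 4555 genes (32.2% of those tested) were called at 24 h and 3607 (25.5%) at 6 h. At 24 h, 2487 genes were higher (17.6%) and 2068 lower (14.6%), and at 6 h 2097 were higher (14.8%) and 1510 lower (10.7%). Large differences were more often decreases: 271 genes rose (1.92%) and 643 fell (4.55%) by at least 2-fold at 24 h, and 202 rose (1.43%) and 518 fell (3.67%) by at least 2-fold at 6 h. Set against the DMSO arrays alone, with no test, the A-485 array lay outside both DMSO arrays and at least 2-fold from their mean for 306 higher (2.17%) and 671 lower (4.75%) genes at 24 h and for 231 higher (1.63%) and 544 lower (3.85%) genes at 6 h. Without the doubtful DMSO arrays, 1713 genes were higher and 1666 lower at 24 h, and 1537 were higher and 1343 lower at 6 h. The split between higher and lower depends on the scaling and the floor. With the intensities as deposited and a floor of 32, 68.5% of the calls at 24 h and 87.3% at 6 h were higher. With a floor of 1 these shares were 46.1% and 75%, and after quantile normalization they were 54.6% and 58.1%. The median gene moved by 0.18 at 24 h and 0.39 at 6 h with the deposited intensities at a floor of 32. Each difference here is thus relative to the median gene.

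The response had a shared part and parts seen at a single time. Calls at both times in the same direction covered 1209 higher genes (8.56%) and 1060 lower genes (7.5%). The shared higher genes were 48.6% of the higher calls at 24 h and 57.7% of those at 6 h, and the shared lower genes were 51.3% and 70.2%. A gene was placed at a single time where it was called at that time, was not called at the other and had a called change between the differences at 24 h and 6 h. By that rule, 327 genes rose (2.31%) and 333 fell (2.36%) at 24 h only, and 202 rose (1.43%) and 142 fell (1%) at 6 h only. Another 163 genes were called in opposite directions, 66 of them higher at 24 h (0.467%) and 97 lower at 24 h (0.686%). A further 2294 genes were called at 1 time without a called change, so their timing was not resolved. They comprised 885 higher (6.26%) and 578 lower (4.09%) at 24 h and 589 higher (4.17%) and 242 lower (1.71%) at 6 h. No call was made for 8400 genes (59.4%). With the doubtful DMSO arrays left out, 1629 genes were called at both times, 477 at 24 h only and 321 at 6 h only.

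**Figure D1:**
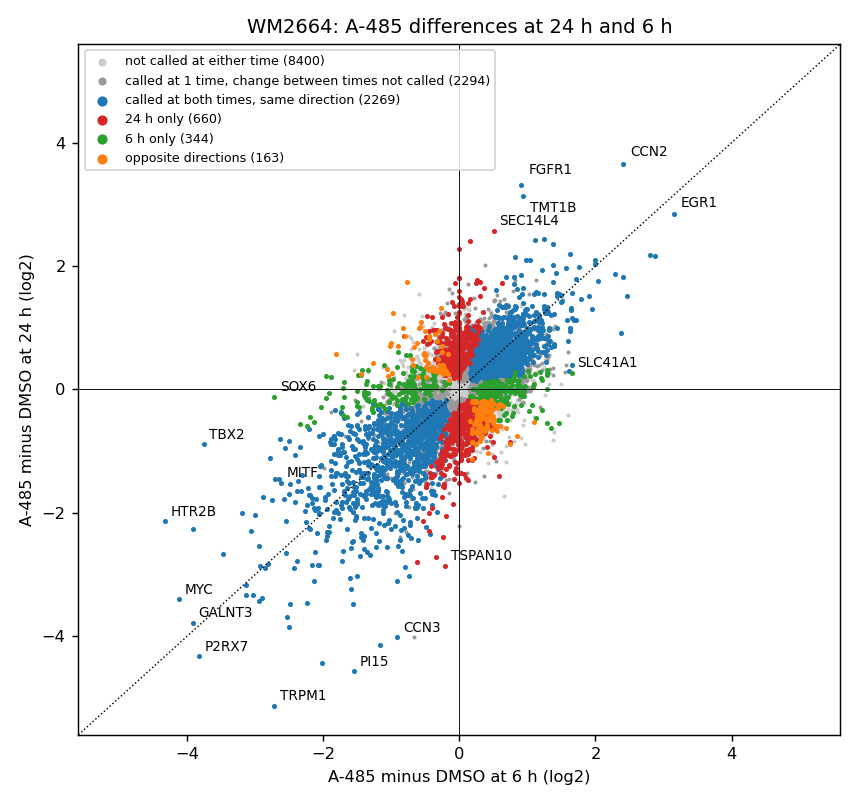
Differences between A-485 and DMSO in WM2664 for the 14130 genes tested, with the log2 difference at 6 h on the x axis, the log2 difference at 24 h on the y axis and the colour giving the time class. The dotted line marks equal differences, and the genes far below it, such as PI15 and CCN3, fell further at 24 h, while TBX2 and HTR2B fell further at 6 h.

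The difference itself shifted by a called amount between the times in 1608 genes (11.4%), with 711 higher (5.03%) and 897 lower (6.35%) at 24 h than at 6 h, and by at least 2-fold in 191 upward (1.35%) and 185 downward (1.31%). Among genes that fell at both times, 196 had fallen further at 24 h and 108 less far. Among genes that rose at both times, 65 stood higher at 24 h and 62 less high. Across genes, the differences at 24 h and 6 h correlated at 0.64 (Pearson, 14130 genes, which are not independent and share normalization). DMSO cells of 24 h and 6 h differed in 312 genes (2.21%), 161 higher (1.14%) and 151 lower (1.07%) at 24 h, and by at least 2-fold in 5 genes (0.0354%) each way. These included 21 of the 327 genes higher and 39 of the 333 lower at 24 h only. They also included 12 of 202 higher and 6 of 142 lower at 6 h only. Among genes called in opposite directions they were 12 of 66 and 12 of 97, and among genes not called 53 of 8400. The same DMSO arrays enter the time classes, so these counts are not independent of them.

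MITF fell at both times, and further at 6 h. Its normalized intensity was 1762 with A-485 against 4981 and 5044 with DMSO at 24 h, and 831 with A-485 against 5066 and 5126 with DMSO at 6 h. The A-485 arrays lay well below every DMSO array, and the 4 DMSO arrays lay close together. The difference was -1.51 ± 0.08 at 24 h (adjusted p = 1.7e-05) and -2.62 ± 0.08 at 6 h (adjusted p = 2.27e-06), and the change of 1.11 between times was called (adjusted p = 0.00168).

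The melanocyte lineage factors that stand beside or above MITF were lower, and further at 6 h in many. Of 28 tested, 16 were lower and 3 higher at 24 h (median -0.49, against 0 over all genes), and 18 were lower and none higher at 6 h (median -1.18), with 13 lower at both times. At 24 h, 57.1% were lower and 10.7% higher, against 14.6% and 17.6% of all genes. At 6 h, 64.3% were lower, against 10.7% of all genes. The change between times was called upward for 12 (42.9%, against 5.03% of all genes) and downward for none. SOX10, the neural crest factor that activates MITF, read 2830 with A-485 against 3416 and 3417 with DMSO at 24 h, and 1468 with A-485 against 3072 and 3368 with DMSO at 6 h. It was below both DMSO arrays at each time and was called at 6 h (-1.13 ± 0.13, adjusted p = 0.000764) but not at 24 h (-0.27 ± 0.13, adjusted p = 0.164). Its change of 0.86 was called (adjusted p = 0.0251), a call that ended without the second WM2664 DMSO array of 6 h, at 0.79, or either one of 24 h, at 0.86. TBX2, a T-box repressor that restrains senescence in melanoma cells, read 483 with A-485 against 883 and 902 with DMSO at 24 h, and 65.4 with A-485 against 888 and 884 with DMSO at 6 h. The 6 h array alone was close to the floor, and the change between times was 2.87 (adjusted p = 0.00231). Its difference was -0.89 ± 0.23 at 24 h (adjusted p = 0.0222), a call that ended without either WM2664 DMSO array of 24 h, at -0.90 and -0.87.

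Other lineage factors fell at both times. ERBB3, a neuregulin receptor of the neural crest, differed by -2.0 ± 0.1 at 24 h and -3.19 ± 0.10 at 6 h. IRF4, a pigmentation factor, differed by -2.54 ± 0.16 and -2.94 ± 0.16, and SNAI2, a neural crest repressor, differed by -2.83 ± 0.18 and -2.81 ± 0.18. SOX9 and TFAP2B, further neural crest factors, fell, with -1.74 and -1.45 at 24 h and with -2.88 and -2.65 at 6 h, where their A-485 intensities of 40.2 and 37.7 were too near the floor for an exact size. When the doubtful DMSO arrays were left out, 13 lineage factors were lower at 24 h and 18 at 6 h, and 9 had a called upward change.

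Pigmentation genes were called lower more often at 24 h, though a downward change between times was called for 5. Of 18 tested, 13 were lower at 24 h (median -1.15) and 9 at 6 h (median -0.61), none was higher, and 9 were lower at both times. SLC45A2, a melanosomal transporter, read 171 with A-485 against 1319 and 1198 with DMSO at 24 h, and 579 with A-485 against 1028 and 981 with DMSO at 6 h. Both A-485 arrays were below all 4 DMSO arrays, and the 24 h array was the lowest. The difference was -2.88 ± 0.12 at 24 h and -0.80 ± 0.12 at 6 h, with a called change of -2.09 (adjusted p = 0.000595). GPR143, a melanosomal receptor mutated in ocular albinism, followed the same order with -2.41 ± 0.13 and -0.71 ± 0.13. MLPH, which links melanosomes to their motor, fell, with -2.37 and -1.95, MC1R, the melanocortin receptor, with -1.49 and -1.65, and RAB38, a melanosome trafficking GTPase, with -1.35 and -0.90.

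TYRP1, an enzyme of eumelanin synthesis, read 246 with A-485 against 3957 and 4001 with DMSO at 24 h, and 2545 with A-485 against 4114 and 3923 with DMSO at 6 h. The drop at 24 h was called with an SE of 0.80 (-4.02, adjusted p = 0.00745), and the value at 6 h was not (-0.66, adjusted p = 0.688). Without either array of the A375 DMSO pair of 6 h, in which 1 array held SKMEL5 transcripts, 10 pigmentation genes rather than 5 had a called downward change, and 8 rather than 4 of the 9 melanocyte markers were lower at 24 h. Without the doubtful DMSO arrays, 17 of the 18 pigmentation genes were lower at 24 h and 11 at 6 h, where 1 was higher.

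The wider MITF program, known MITF targets outside pigment synthesis, fell at both times. Of 55 tested, 42 were lower and 2 higher at 24 h (median -1.37), 39 were lower and none higher at 6 h (median -0.94), and 35 were lower at both times. The lower shares were 76.4% at 24 h and 70.9% at 6 h, against 14.6% and 10.7% of all genes. The higher share at 24 h was 3.64%, against 17.6% of all genes. TRPM1, a melanocyte cation channel whose gene hosts a microRNA, was at the floor with A-485 at 24 h, against 1026 and 1222 with DMSO, and read 142 with A-485 at 6 h, against 994 and 880 with DMSO. The A-485 array of 24 h was thus lower, with at least -5.13 ± 0.11, and that of 6 h with -2.72 ± 0.11. GALNT3, an enzyme that starts O-linked glycosylation, read 38.0 with A-485 against 496 and 552 with DMSO at 24 h, and 34.1 with A-485 against 537 and 495 with DMSO at 6 h. It fell near the floor at both times, so the sizes of -3.78 and -3.92 are not exact.

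TRIM63, a muscle ubiquitin ligase that is also a MITF target, fell, with -3.69 ± 0.08 at 24 h and -2.53 ± 0.08 at 6 h, with an A-485 intensity of 47.5 at 24 h that was near the floor. CITED1, a CBP-binding coactivator, was lower, with at least -3.86 at 24 h and fell, with -2.51 at 6 h. PPARGC1A, the coactivator that drives mitochondrial genes in MITF-high melanoma, was at the floor with A-485 at both times, a difference of at least -3.33 at 24 h and -3.13 at 6 h. ABCB5, a transporter, fell, with -3.48 (near the floor) and -2.49. With the doubtful DMSO arrays left out, 39 members were lower at 24 h and 34 at 6 h, and a downward change was called for 9 rather than 16.

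Promoter sequence was read for these genes because MITF binds short E-box motifs. TCATGTG, the M-box, and CACGTG, the palindromic E-box, were searched on both strands from 250 bases before to 50 bases after each RefSeq start (GRCh38.p14). The M-box was found in 4 of 14 pigmentation promoters (28.6%) and in 4 of 42 MITF program promoters (9.52%), against 1.9% of the 11373 promoters of genes tested and 2.99% of all 27305 promoters. The E-box was found in 3 of 14 (21.4%) and 10 of 42 (23.8%), against 9.95% and 7.43%. A match is a description of the letters only. List members with a match were not all called lower. TYR, GLMP and CEACAM1, with the M-box, and ATP7A, DIAPH1, FAM174B and ISG20, with the E-box, were not called at either time. A missing call does not show that a gene was unchanged. TYR read 5610 with A-485 against 8700 and 8620 with DMSO at 24 h. At 6 h it read 6810 with A-485 against 8420 and 8150 with DMSO. The following stretches are shown because their genes fell on different schedules, with the motif in capitals on the strand of the gene, as TCATGTG or its complement CACATGA, or as CACGTG. They were picked among genes that fell, and TSPAN10 is a member of neither list.
TYRP1 (chr9:12693200-12693286, plus strand, motif 145 bases before the start, called at 24 h): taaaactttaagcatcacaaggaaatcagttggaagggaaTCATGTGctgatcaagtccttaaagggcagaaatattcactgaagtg
GPR143 (chrX:9765848-9765948, minus strand, motifs 61 and 33 bases before the start, fell at both times and further at 24 h): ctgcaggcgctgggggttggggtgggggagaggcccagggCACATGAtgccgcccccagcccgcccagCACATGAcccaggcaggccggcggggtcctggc
TRIM63 (chr1:26067635-26067721, minus strand, motif 51 bases before the start, fell at both times): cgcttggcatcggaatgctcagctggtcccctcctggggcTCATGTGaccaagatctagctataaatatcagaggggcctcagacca
TSPAN10 (chr17:81642185-81642271, plus strand, motif 80 bases before the start, fell at 24 h only): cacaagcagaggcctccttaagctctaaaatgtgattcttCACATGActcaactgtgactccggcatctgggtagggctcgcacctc
MLPH (chr2:237487176-237487250, plus strand, motif 35 bases before the start, fell at both times): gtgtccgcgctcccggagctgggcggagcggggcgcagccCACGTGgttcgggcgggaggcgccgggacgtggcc

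Over the time classes, the M-box stood in 1.89% of the promoters of genes lower at both times and in 0.484% of those higher at both times, against 1.9% of all genes tested. At a single time it stood in 2.14% of the genes that fell at 24 h only and in 2.61% of those that fell at 6 h only.

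Outside these lists, the genes that fell most at both times included receptors and transcription factors. P2RX7, an ATP-gated ion channel, read 58.2 with A-485 against 1146 and 1194 with DMSO at 24 h, and 75.7 with A-485 against 1060 and 1091 with DMSO at 6 h. The groups did not overlap, and the difference was -4.33 ± 0.04 at 24 h (near the floor) and -3.83 ± 0.04 at 6 h (adjusted p = 1.61e-08 and 3.91e-08). MYC, the growth regulator, read 199 with A-485 against 2105 and 2109 with DMSO at 24 h, and 124 with A-485 against 2130 and 2177 with DMSO at 6 h. MYC fell, with -3.40 ± 0.08 at 24 h and -4.12 ± 0.08 at 6 h. Its change of 0.72 between the times was called (adjusted p = 0.00917).

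ADGRG1, an adhesion G protein-coupled receptor, fell further with time: it read 153 with A-485 against 3243 and 3339 with DMSO at 24 h, and 763 with A-485 against 3100 and 3078 with DMSO at 6 h. Its difference was -4.43 ± 0.10 at 24 h and -2.02 ± 0.10 at 6 h. ID4, an inhibitor of helix-loop-helix factors, fell, with -3.34 and -3.03, and LRATD2 with -3.17 and -3.14. EMX2, a homeobox factor, fell, with -3.43 (near the floor) and -2.95. HTR2B, a serotonin receptor, was the reverse of ADGRG1: it was at the floor with A-485 at 6 h, a difference of at least -4.33, and at 170 with A-485 at 24 h, a difference of -2.14 ± 0.05.

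Further genes that fell at both times differed in how far by 24 h. PI15, a peptidase inhibitor, read 77.5 with A-485 against 1828 and 1842 with DMSO at 24 h, and 570 with A-485 against 1647 and 1686 with DMSO at 6 h. CCN3, a matricellular protein made by melanocytes, read 81.2 with A-485 against 1287 and 1349 with DMSO at 24 h, and 853 with A-485 against 1592 and 1623 with DMSO at 6 h. Their A-485 arrays of 24 h were the lowest of all 6 arrays, and those of 6 h lay between them and the DMSO arrays. The change between times was -3.02 for PI15 (adjusted p = 5.86e-05) and -3.10 for CCN3 (adjusted p = 0.00344). The call of CCN3 at 6 h (-0.91, adjusted p = 0.0473) ended in 17 of the 24 alternatives, 10 of which left out 1 DMSO array. LINC00520, a long noncoding RNA near the floor at 24 h, and DCLK1, a microtubule-associated kinase, changed with -2.97 and -2.29. In the other direction, RGS4, which shuts off G protein signals and was near the floor at 6 h, changed by 1.68, and KCNN4, a calcium-activated potassium channel, by 1.82. The call of KCNN4 at 24 h (-0.81, adjusted p = 0.0409) ended in 12 alternatives.

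**Figure D2:**
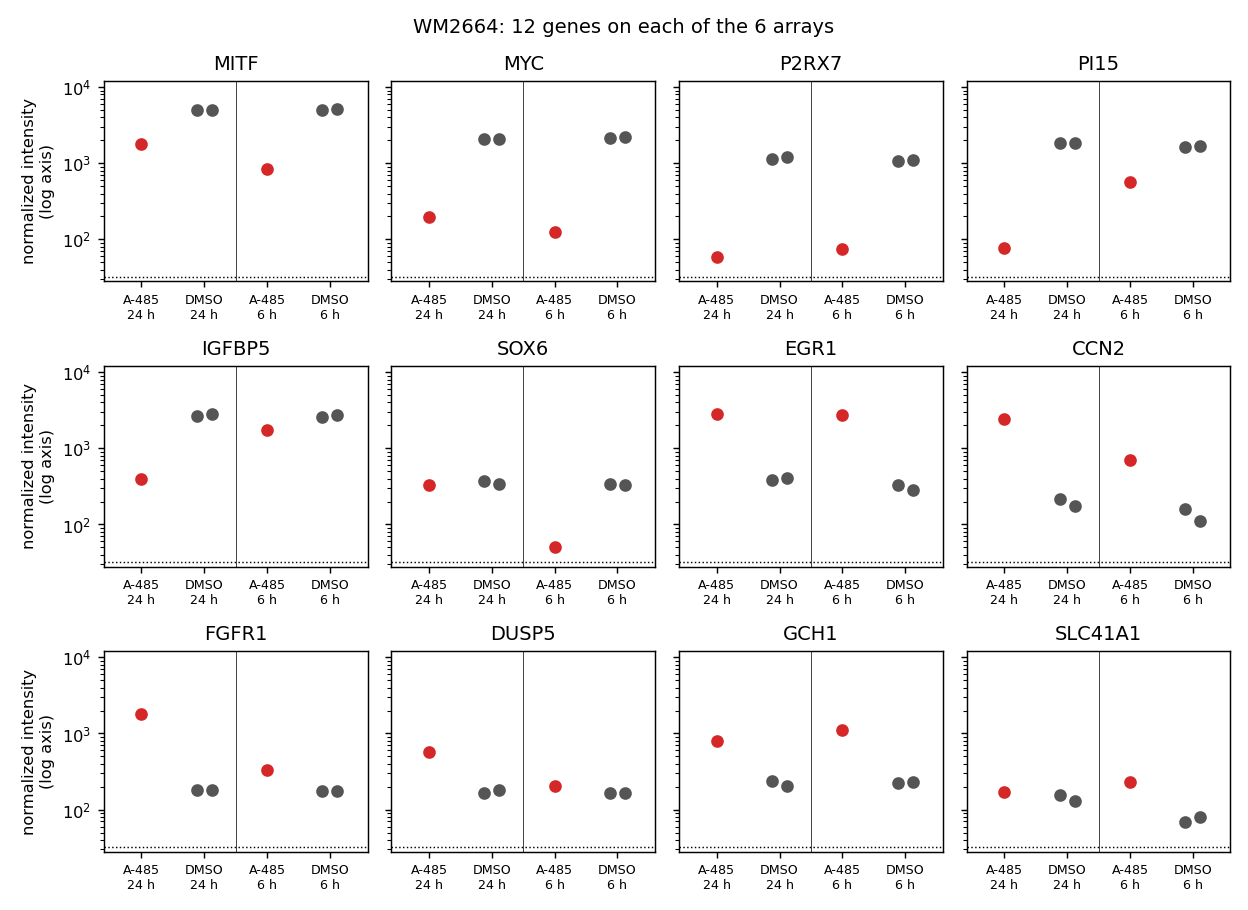
Normalized intensity (log axis, floor of 32 dotted) of 12 genes on each of the 6 WM2664 arrays, with A-485 in red and DMSO in grey and 24 h left of 6 h. The DMSO points of MITF, MYC and P2RX7 lie close together and far above A-485 at both times, PI15 and IGFBP5 are lowest with A-485 at 24 h, SOX6 is low with A-485 at 6 h alone, and EGR1 and CCN2 are higher with A-485 at both times.

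Genes that rose at both times included EGR1 and CCN2. EGR1, a zinc-finger factor induced within minutes by growth signals, read 2822 with A-485 against 382 and 404 with DMSO at 24 h, and 2722 with A-485 against 332 and 284 with DMSO at 6 h. Both A-485 arrays were above all 4 DMSO arrays, and the difference was 2.84 ± 0.13 at 24 h and 3.15 ± 0.13 at 6 h (adjusted p = 8.48e-06 and 6.86e-06). CCN2, a matricellular protein and target of YAP, read 2456 with A-485 against 216 and 175 with DMSO at 24 h, and 708 with A-485 against 162 and 111 with DMSO at 6 h. It rose by 3.66 ± 0.23 and 2.40 ± 0.23, and it was among the 95 genes high in another line. Without the doubtful DMSO arrays it rose by 3.51 and 2.67 (adjusted p = 0.0019 and 0.00387).

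FGFR1, a fibroblast growth factor receptor, read 1800 with A-485 against 182 and 182 with DMSO at 24 h, and 328 with A-485 against 176 and 173 with DMSO at 6 h. The A-485 array of 24 h stood far above the rest and that of 6 h a little above DMSO. It rose by 3.31 ± 0.17 and 0.91 ± 0.17, with a change of 2.40 (adjusted p = 0.0016). The other probe sets of FGFR1 disagreed, with differences from -0.27 to 2.93 at 24 h. TMT1B, a thiol methyltransferase, behaved alike, with 3.14 ± 0.11 and 0.93 ± 0.11. SERTAD1, a transcriptional cofactor of the cell cycle, rose by 2.19 and 1.62, SERPINB8, a protease inhibitor, by 1.98 and 1.76, and PTGS2, the inducible cyclooxygenase, by 1.51 and 2.46 from a DMSO level near the floor.

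The transcripts of both targets of A-485 read higher with it. CREBBP read 789 with A-485 against 426 and 434 with DMSO at 24 h, and 837 with A-485 against 546 and 522 with DMSO at 6 h. It rose by 0.88 ± 0.15 at 24 h (adjusted p = 0.00415) and 0.65 ± 0.15 at 6 h (adjusted p = 0.0191), and the call at 6 h ended without the second WM2664 DMSO array of 6 h, at 0.62. EP300 read 622 with A-485 against 410 and 413 with DMSO at 24 h, and 571 with A-485 against 383 and 395 with DMSO at 6 h. Its A-485 arrays were above all DMSO arrays, but the call at 24 h (0.60 ± 0.19, adjusted p = 0.0491) ended in 15 alternatives and 6 h was not called (0.55 ± 0.19, adjusted p = 0.0746). Of 40 acetyltransferases, deacetylases and readers tested, 10 rose and 5 fell at 24 h (25.0% and 12.5%, against 17.6% and 14.6% of all genes), and 9 rose and 6 fell at 6 h (22.5% and 15.0%, against 14.8% and 10.7% of all genes). HEXIM1, which holds P-TEFb inactive, rose by 0.97 (not called without the first WM2664 DMSO array of 24 h, at 0.94) and 1.31, SIRT1, a deacetylase, rose at 6 h by 1.30, and the CBP-binding CITED2 and CITED4 fell near the floor at both times. When the doubtful DMSO arrays were left out, 6 rose and 4 fell at 24 h, and 7 rose and 3 fell at 6 h.

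The genes named next were called at 24 h only. IGFBP5, which binds insulin-like growth factors, read 392 with A-485 against 2629 and 2844 with DMSO at 24 h, and 1726 with A-485 against 2588 and 2746 with DMSO at 6 h. The 24 h array was far below the rest, and the difference was -2.80 ± 0.23 at 24 h (adjusted p = 0.000117), with -0.63 ± 0.23 at 6 h (adjusted p = 0.087). The other probe sets of IGFBP5 differed by -3.08 to -0.30 at 24 h. Without quantile normalization, at a floor of 1, the IGFBP5 value at 24 h was -0.08, and the cause was not tested. The IGFBP5 call at 24 h ended in that 1 alternative only, so it held without quantile normalization at the main floor. TSPAN10, a tetraspanin of pigmented cells, fell at 24 h (-2.86 ± 0.24, near the floor), with -0.21 ± 0.24 at 6 h. PMP2, a lipid carrier of Schwann cells, fell, with -2.71, BIRC7, an apoptosis inhibitor and MITF target, with -2.39, and LRP8, a lipoprotein receptor, with -1.57. CHST5, a sulfotransferase, fell, with -2.13, and its DMSO level was itself higher at 24 h than at 6 h by 1.37 (adjusted p = 0.0117). MMP15, a membrane metalloproteinase, and MYB, a transcription factor, were at the floor with A-485 at 24 h, lower, with at least -2.3 and -2.0.

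SEC14L4, a lipid transfer protein, rose most among genes higher at 24 h only whose DMSO level was above the floor. It read 467 with A-485 against 88.1 and 70.4 with DMSO at 24 h, and 122 with A-485 against 97.5 and 74.3 with DMSO at 6 h. The rise was 2.57 ± 0.28 at 24 h (adjusted p = 0.000452), with 0.51 ± 0.28 at 6 h (adjusted p = 0.247). ST8SIA5, a sialyltransferase of gangliosides, rose by 2.40 ± 0.20. DUSP5, a nuclear ERK phosphatase, read 572 with A-485 against 164 and 179 with DMSO at 24 h, and 203 with A-485 against 164 and 167 with DMSO at 6 h, a rise of 1.74 ± 0.17 at 24 h. GSTT1, a glutathione transferase, rose by 1.73, CHPF2, of chondroitin synthesis, by 1.51, and CXXC5, a regulator of Wnt signalling, by 1.73, with a change between times that was lost without any of 10 DMSO arrays. ADIRF, PTPRN2 and the histone gene H2AC6 were at the floor on the other 5 arrays and stood higher with A-485 at 24 h by at least 2.27, 1.80 and 1.81.

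Genes that fell at 6 h only included the transcription factors SOX6 and SOX5. SOX6 read 329 with A-485 against 374 and 339 with DMSO at 24 h, and 50.9 with A-485 against 344 and 326 with DMSO at 6 h. The 6 h array alone was low, with a difference of -2.72 ± 0.06 at 6 h (near the floor, adjusted p = 9.64e-07) and -0.12 ± 0.06 at 24 h (adjusted p = 0.242). SOX5 read 1127 with A-485 against 1113 and 1240 with DMSO at 24 h, and 274 with A-485 against 1097 and 965 with DMSO at 6 h. It lay inside the DMSO pair at 24 h and fell, with -1.91 ± 0.15 at 6 h. HMGA2, a chromatin architectural protein, read 478 with A-485 against 521 and 534 with DMSO at 24 h, and 169 with A-485 against 596 and 730 with DMSO at 6 h, a difference of -1.96 ± 0.11.

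SLCO4A1, an anion transporter, fell at 6 h with -2.35, SERTAD4 with -2.24, and SHC4, an adaptor of receptor tyrosine kinases, with -1.96. SMAD3, the TGF-beta signal transducer, read 173 with A-485 against 252 and 221 with DMSO at 24 h, and 67.9 with A-485 against 258 and 376 with DMSO at 6 h, a difference of -2.20 ± 0.31 at 6 h. The changes between times of SMAD3 and SERTAD4, 1.75 and 1.65, ended without some single DMSO arrays, 9 and 3 of them. Genes that fell at 6 h only had a median genomic span of 74.1 kb, against 28.6 kb over all genes tested, 48.6 kb for genes lower at both times and 25.9 kb for genes lower at 24 h only. Span was taken from RefSeq gene coordinates, and its part in the calls was not tested.

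Genes that rose at 6 h only moved less. SLC41A1, a magnesium transporter, read 171 with A-485 against 155 and 129 with DMSO at 24 h, and 233 with A-485 against 69.3 and 80.2 with DMSO at 6 h. The DMSO level was higher at 24 h by 0.93 (adjusted p = 0.0344), and the rise at 6 h was 1.65 ± 0.19 (adjusted p = 0.000766). CCDC117 read 589 with A-485 against 526 and 513 with DMSO at 24 h, and 1103 with A-485 against 505 and 459 with DMSO at 6 h, a rise of 1.20 ± 0.07 at 6 h, with 0.18 ± 0.07 at 24 h (adjusted p = 0.0902). TUBE1, epsilon tubulin, rose by 1.29 at 6 h and SASS6, a centriole assembly protein, by 1.21, with -0.55 and -0.34 at 24 h. LMTK2, a membrane kinase, and ELP4, an Elongator subunit, rose by 1.29 and 1.28 at 6 h, but their changes between times, -1.04 and -1.01, were lost without any of 9 and 10 single DMSO arrays, at -1.07 to -0.84 and -1.11 to -0.91.

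Genes called in opposite directions at 24 h and 6 h were few, and most of their differences were under 2-fold at both times. The median absolute difference was 0.39 at 24 h and 0.41 at 6 h for those higher at 24 h. For those lower at 24 h it was 0.45 and 0.35. The genes named here were picked by the size of their difference at 24 h. EMP1, an epithelial membrane protein, read 1805 with A-485 against 876 and 924 with DMSO at 24 h, and 680 with A-485 against 1050 and 1001 with DMSO at 6 h. It was above DMSO at 24 h and below it at 6 h, by 1.00 ± 0.06 and -0.59 ± 0.06. NLGN4X, a neuroligin, differed by 1.32 and -0.27, ERRFI1, an inhibitor of EGF receptors, by 0.95 and -0.50, and SLC2A1, the glucose transporter, by 0.94 and -0.30, where its own DMSO level was lower at 24 h with -0.69. ANGPTL4, a lipase inhibitor, differed by 1.01 and -0.58, and its DMSO level was lower at 24 h with -1.18. The calls of NLGN4X and SLC2A1 at 6 h ended in 17 and 18 of the 24 alternatives, and that of ERRFI1 without either WM2664 DMSO array of 6 h, at -0.51 and -0.48. Without quantile normalization the 6 h values of NLGN4X, SLC2A1 and ERRFI1 turned positive, to 0.25, 0.18 and 0.03.

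Among the lists, mitosis genes had the most members called in opposite directions, lower at 24 h and higher at 6 h. Of 48 tested, 37 were lower and none higher at 24 h (median -0.52), while 19 were higher and 2 lower at 6 h (median 0.29). At 24 h, 77.1% were lower, against 14.6% of all genes. At 6 h, 39.6% were higher and 4.17% lower, against 14.8% and 10.7% of all genes. The change between times was called downward for 35 (median -0.83) and upward for none, and 15 were called in opposite directions. The downward change was called for 72.9%, against 6.35% of all genes. AURKB, a mitotic kinase, read 326 with A-485 against 734 and 948 with DMSO at 24 h, and 466 with A-485 against 558 and 630 with DMSO at 6 h. It read below DMSO at both times and fell at 24 h (-1.36 ± 0.19), with -0.35 ± 0.19 at 6 h. BUB1B, of the spindle checkpoint, read 773 with A-485 against 1546 and 1518 with DMSO at 24 h, and 1438 with A-485 against 1489 and 1419 with DMSO at 6 h. It lay inside the DMSO pair at 6 h and fell, with -0.99 ± 0.07 at 24 h.

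ESPL1, separase, fell, with -1.22 at 24 h and CENPF, a kinetochore protein, with -1.21. CENPA, the centromeric histone, read 354 with A-485 against 684 and 628 with DMSO at 24 h, and 682 with A-485 against 568 and 583 with DMSO at 6 h, a difference of -0.89 ± 0.06 and 0.24 ± 0.06. CEP55, of cell abscission, differed by -0.75 and 0.33, CKS2, a CDK subunit, by -0.84 and 0.30, and FAM83D, a spindle protein, by -1.13 and 0.19. The 6 h rises rest on small differences: 12 mitosis genes rather than 19 were higher without the second WM2664 DMSO array of 6 h, 9 without the doubtful DMSO arrays, 10 with scaling to the 75th percentile and 4 with the WM2664 arrays alone. At 24 h, 25 of 48 were lower without the doubtful DMSO arrays, and the downward change was then called for 21. The calls of CENPA and CKS2 at 6 h ended without either WM2664 DMSO array of that time, at 0.22 and 0.26 for CENPA and 0.30 each for CKS2.

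**Figure D3:**
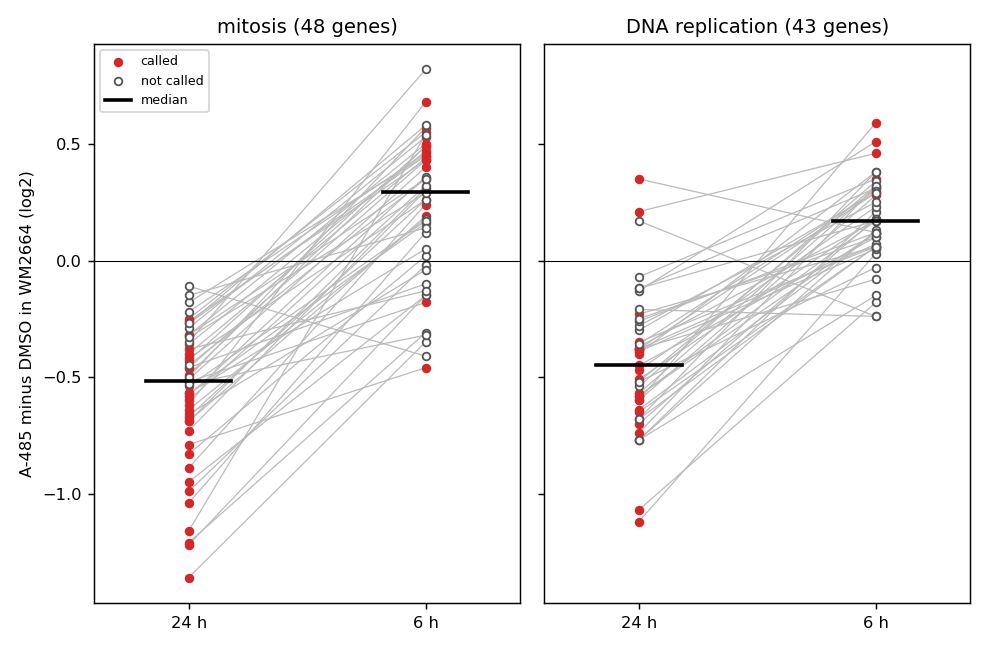
Log2 differences, A-485 minus DMSO, of each mitosis gene (48) and DNA replication gene (43) at 24 h and 6 h in WM2664, with a line per gene, red points for called differences, open points for the rest and a black bar at the median. The medians were -0.52 at 24 h and 0.29 at 6 h for mitosis, and -0.45 and 0.17 for DNA replication.

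DNA replication genes were likewise lower at 24 h. Of 43 tested, 26 were lower and 2 higher at 24 h (median -0.45), 8 were higher and none lower at 6 h (median 0.17), and the change was called downward for 22. The 8 are 18.6% of the list, near the 14.8% of all genes. At 24 h, 60.5% were lower and 4.65% higher, against 14.6% and 17.6% of all genes. The downward change was called for 51.2%, against 6.35% of all genes. FEN1, the flap endonuclease, read 808 with A-485 against 1677 and 1827 with DMSO at 24 h, and 1988 with A-485 against 1929 and 1967 with DMSO at 6 h. The 24 h array alone was low, with -1.12 ± 0.06 (adjusted p = 2.37e-05). DTL, an adaptor of replication licensing control, fell, with -1.07 at 24 h, ORC6 of the origin complex with -0.77 and RFC3 of the clamp loader with -0.70. Without the doubtful DMSO arrays, 18 replication genes were lower at 24 h and a downward change was called for 14, and with scaling to the 75th percentile 2 rather than 8 were higher at 6 h.

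Regulators of cell cycle entry moved in both directions. CDKN1A, the CDK inhibitor p21, read 2968 with A-485 against 1052 and 1004 with DMSO at 24 h, and 2359 with A-485 against 817 and 849 with DMSO at 6 h. It rose by 1.53 ± 0.06 and 1.5 ± 0.06, with no overlap between groups, while CDKN1C, p57, was at the floor with A-485 at 24 h, lower, with at least -2.45. Of 24 G1 cyclins, CDKs and E2F genes, 3 rose and 7 fell at 24 h, and 7 rose and 3 fell at 6 h. At 24 h, 12.5% rose and 29.2% fell, against 17.6% and 14.6% of all genes. At 6 h, 29.2% rose and 12.5% fell, against 14.8% and 10.7% of all genes. CDK2, whose gene neighbours a pigment gene and is a MITF target, fell, with -1.37 at 24 h and -0.39 at 6 h, and E2F7, a repressor of the E2F family, fell, with -1.39 at 24 h. CDK6 fell at 6 h (-1.36), with -0.18 at 24 h, and CCND3, cyclin D3, rose by 0.87 and 1.06. Among 23 p53 targets, 7 rose and 5 fell at 24 h, and 6 rose and 4 fell at 6 h. At 24 h, 30.4% rose and 21.7% fell, against 17.6% and 14.6% of all genes. At 6 h, 26.1% rose and 17.4% fell, against 14.8% and 10.7% of all genes. GDF15, a stress cytokine, fell, with -1.89 and -1.09, and TP53INP1 rose by 1.08 and 0.56. With the doubtful DMSO arrays left out, 3 p53 targets rose at 24 h.

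MYC fell, and many ribosome biogenesis genes were lower. Whether their falls followed from that of MYC was not tested. Of 34 ribosome biogenesis genes, classical MYC targets, 20 were lower and none higher at 24 h (median -0.41), and 12 were lower and 1 higher at 6 h (median -0.17). The lower shares were 58.8% at 24 h and 35.3% at 6 h, against 14.6% and 10.7% of all genes. The higher share at 6 h was 2.94%, against 14.8% of all genes. RRS1, a ribosome assembly factor, read 143 with A-485 against 290 and 261 with DMSO at 24 h, and 177 with A-485 against 412 and 399 with DMSO at 6 h. It fell, with -0.94 ± 0.11 and -1.20 ± 0.11, and NOP16, a nucleolar protein, fell, with -1.12 and -1.10. Among 11 genes of the MYC network, MYC fell, its antagonist MXD1 rose by 2.16 and 2.87 from near the floor, and MXI1 and MLXIP fell, with -1.12 and -1.30 at 24 h and with -1.24 and -1.47 at 6 h. The E-box CACGTG, to which MYC and MAX bind, stood in 12 of 29 ribosome biogenesis promoters (41.4%), against 9.95% of genes tested. When the doubtful DMSO arrays were left out, 12 ribosome biogenesis genes were lower at 24 h and 7 at 6 h.

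Immediate early genes, which serum and growth factors induce without new protein synthesis, were called higher more often than all genes. Of 29 tested, 12 rose and 5 fell at 24 h (median 0.39), and 12 rose and 4 fell at 6 h (median 0.18), with 10 higher at both times. The higher share was 41.4% at each time, against 17.6% of all genes at 24 h and 14.8% at 6 h. The lower shares of 17.2% and 13.8% were near the 14.6% and 10.7% of all genes. FOS, a partner in the AP-1 dimer, read 142 with A-485 against 32 and 37.6 with DMSO at 24 h, and 134 with A-485 against 32 and 35.5 with DMSO at 6 h. It rose from the floor, so its sizes of 2.04 and 1.99 are not exact. MCL1, an antiapoptotic BCL2 protein, rose by 1.08 and 1.21. The change of EGR1 between times was not called (-0.30, adjusted p = 0.379), and its promoter is shown because it holds a pair of CArG boxes, the sites of the serum response factor, in capitals.
EGR1 (chr5:138465334-138465445, plus strand, GRCh38.p14, motifs 105 and 83 bases before the start): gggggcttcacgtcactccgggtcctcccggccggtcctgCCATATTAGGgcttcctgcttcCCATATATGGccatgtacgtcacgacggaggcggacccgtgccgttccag
The CArG box, searched on both strands, stood in 2 of 22 promoters of the list (9.09%) and in 1.09% of the genes tested, and it stood in 0.871% of genes higher and 2.13% of genes lower at both times.

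Transcripts that report MAP kinase output were lower in more members at 6 h than at 24 h. Of 26 tested, 8 were higher and 7 lower at 24 h (median 0.02), 3 were higher and 12 lower at 6 h (median -0.34), and the change was called upward for 12 (median 0.53) and downward for none. At 24 h, 30.8% were higher and 26.9% lower, against 17.6% and 14.6% of all genes. At 6 h, 11.5% were higher and 46.2% lower, against 14.8% and 10.7%. TRIB2, a pseudokinase, read 2887 with A-485 against 5038 and 4760 with DMSO at 24 h, and 1164 with A-485 against 4649 and 5050 with DMSO at 6 h, a difference of -0.76 ± 0.08 and -2.06 ± 0.08. PLK2, a polo-like kinase, fell, with -1.16 and -1.89. Receptor tyrosine kinases and their adaptors had 28 members tested. At 24 h 4 rose and 5 fell (14.3% and 17.9%, against 17.6% and 14.6% of all genes), and at 6 h 2 rose and 8 fell (7.14% and 28.6%, against 14.8% and 10.7% of all genes). ROR1, a Wnt receptor, fell, with -2.85 (near the floor) and -2.16, and IRS2, the insulin receptor substrate, read 793 with A-485 against 2995 and 2729 with DMSO at 24 h, and 605 with A-485 against 2687 and 2773 with DMSO at 6 h. Without the doubtful DMSO arrays, 5 MAP kinase output genes rather than 8 were higher at 24 h, and an upward change was called for 4 rather than 12.

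**Figure D4:**
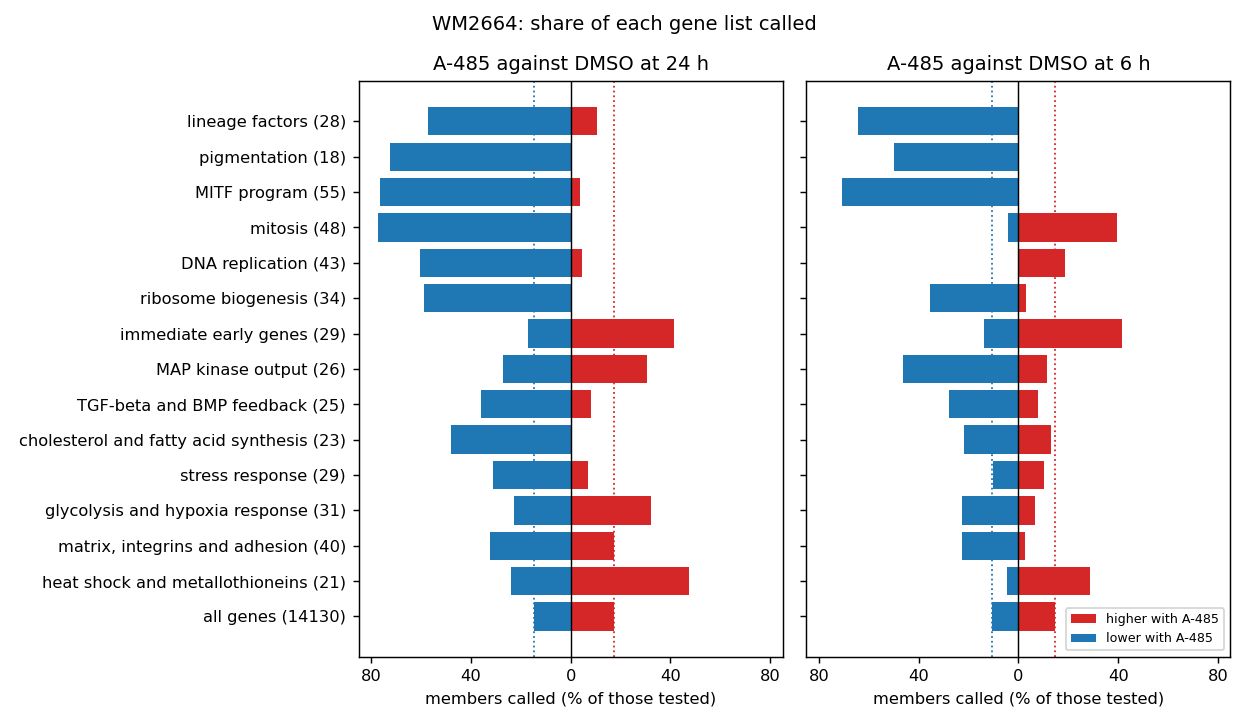
Share of the tested members of each gene list (number in brackets) that was called higher (red, right) or lower (blue, left) with A-485 at 24 h and 6 h in WM2664, with dotted lines at the shares over all genes. Lineage, pigmentation and MITF program lists lie far to the lower side at both times. Mitosis and DNA replication lie to the lower side at 24 h, and mitosis lies to the higher side at 6 h, where DNA replication is near the share of all genes (18.6% against 14.8%).

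Genes of the MITF-low melanoma state, in which MITF is lost and mesenchymal genes are expressed, were called lower more often than higher: of 28 tested, 2 were higher and 5 lower at 24 h (median 0), and 2 were higher and 8 lower at 6 h (median -0.11). The lower share was 17.9% at 24 h, against 14.6% of all genes, and 28.6% at 6 h, against 10.7% of all genes. The higher share was 7.14% at each time, against 17.6% and 14.8% of all genes. THBS1, thrombospondin, read 2817 with A-485 against 2643 and 2661 with DMSO at 24 h, and 1198 with A-485 against 3206 and 3017 with DMSO at 6 h, a difference of -1.38 ± 0.08 at 6 h with 0.09 ± 0.08 at 24 h. CXCL8, a chemokine, fell, with -1.43 at 6 h, and FOSL1, an AP-1 factor, with -0.94 at 24 h. DKK1, a Wnt antagonist, was at the floor with A-485 at both times, lower, with at least -1.69 and -1.46, and CCN2 was the member that rose at both. With the doubtful DMSO arrays left out, 3 rather than 8 were lower at 6 h. DKK1 and CXCL1 are also among the genes high in another line.

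TGF-beta and BMP feedback genes fell at both times in part. Of 25 tested, 2 rose and 9 fell at 24 h (median -0.10), and 2 rose and 7 fell at 6 h (median -0.16). At 24 h, 8% rose and 36% fell, against 17.6% and 14.6% of all genes. At 6 h, 8% rose and 28% fell, against 14.8% and 10.7% of all genes. BAMBI, a decoy receptor, read 1273 with A-485 against 3518 and 3453 with DMSO at 24 h, and 603 with A-485 against 3894 and 4001 with DMSO at 6 h, a difference of -1.45 ± 0.10 and -2.71 ± 0.10. SMAD7, the inhibitory SMAD, fell, with -1.26 and -1.19, SMURF2, a ubiquitin ligase of the pathway, rose by 1.34 and 0.83, and PMEPA1 was at the floor with A-485, lower, with at least -2.30 and -3.06. Of 20 Notch pathway genes, 1 rose and 3 fell at 24 h, and 1 rose and 5 fell at 6 h. The lower share was 15.0% at 24 h, near the 14.6% of all genes, and 25.0% at 6 h, against 10.7%. The higher share was 5.0% at each time, against 17.6% and 14.8% of all genes. HEY1, a Notch target, read 467 with A-485 against 1541 and 1465 with DMSO at 24 h, and 240 with A-485 against 1331 and 1395 with DMSO at 6 h. The coactivators MAML2 and MAML3 were called lower at 6 h (-0.98 and -1.35), with 0.17 and 0.31 at 24 h.

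Of 23 cholesterol and fatty acid synthesis genes, 11 fell and none rose at 24 h (median -0.34), and 5 fell and 3 rose at 6 h (median -0.02). The lower shares were 47.8% at 24 h and 21.7% at 6 h, against 14.6% and 10.7% of all genes. The higher share at 6 h was 13.0%, near 14.8%. The change between times was called downward for 2 and upward for none, a share of 8.7% against 6.35% of all genes. SCD, the stearoyl-CoA desaturase, read 1725 with A-485 against 4660 and 4708 with DMSO at 24 h, and 1752 with A-485 against 3325 and 3432 with DMSO at 6 h. The A-485 arrays were alike and the DMSO level was higher at 24 h by 0.47 (adjusted p = 0.00439), and the larger fall at 24 h (-1.44 ± 0.05, against -0.95 ± 0.05 at 6 h) goes with a higher DMSO level. SREBF1, the sterol response factor, fell, with -1.44 and -1.23, and INSIG1, its regulator, with -1.35 and -0.91. Of 31 glycolysis and hypoxia genes, 10 rose and 7 fell at 24 h, 2 rose and 7 fell at 6 h, and the change was called upward for 6 and downward for none. At 24 h, 32.3% rose and 22.6% fell, against 17.6% and 14.6% of all genes. At 6 h, 6.45% rose and 22.6% fell, against 14.8% and 10.7%. The upward change was called for 19.4%, against 5.03% of all genes. PFKFB4, which sets glycolytic flux, fell, with -2.14 and -2.55, and CA12, a carbonic anhydrase, with -2.16 and -1.05. When the doubtful DMSO arrays were left out, 8 cholesterol genes fell at 24 h and 3 at 6 h, and 4 glycolysis genes fell at each time.

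Tetrahydrobiopterin is the cofactor of aromatic amino acid hydroxylases. Of 7 genes of its synthesis, regulation and recycling tested, 4 rose and 1 fell at 24 h, and 3 rose and 1 fell at 6 h. The higher shares were 57.1% at 24 h and 42.9% at 6 h, against 17.6% and 14.8% of all genes. The lower share was 14.3% at each time, against 14.6% and 10.7%. GCH1, the first enzyme of the pathway, read 801 with A-485 against 236 and 203 with DMSO at 24 h, and 1104 with A-485 against 223 and 229 with DMSO at 6 h, a rise of 1.87 ± 0.11 and 2.29 ± 0.11. PTS, the next enzyme, rose by 0.85 and 0.47. QDPR, which regenerates the cofactor, read 1760 with A-485 against 6521 and 6474 with DMSO at 24 h, and 3617 with A-485 against 4932 and 4673 with DMSO at 6 h. It fell, with -1.88 ± 0.06 and -0.41 ± 0.06.

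Genes of the integrated stress response fell in part at 24 h. Of 29 tested, 2 rose and 9 fell at 24 h (median -0.33), and 3 rose and 3 fell at 6 h (median 0.07). The lower share was 31.0% at 24 h, against 14.6% of all genes, and 10.3% at 6 h, near 10.7%. The higher shares were 6.9% and 10.3%, against 17.6% and 14.8% of all genes. SLC3A2, an amino acid transporter subunit, read 269 with A-485 against 912 and 829 with DMSO at 24 h, and 241 with A-485 against 568 and 588 with DMSO at 6 h, and its DMSO level was higher at 24 h by 0.59 (adjusted p = 0.0087). PSAT1, of serine synthesis, fell at 24 h (-1.33), with -0.07 at 6 h. Heat shock and metallothionein genes rose in part, with 10 higher and 5 lower of 21 at 24 h and 6 higher and 1 lower at 6 h. At 24 h, 47.6% were higher and 23.8% lower, against 17.6% and 14.6% of all genes. At 6 h, 28.6% were higher and 4.76% lower, against 14.8% and 10.7%. MT1F and MT1X, metallothioneins whose near-identical copies share probes, rose at 24 h by 1.38 and 1.02 with 0.04 and 0.11 at 6 h. HSPA4L, a chaperone, rose by 0.70 and 1.26. Without the doubtful DMSO arrays, 5 stress genes fell at 24 h and 6 heat shock and metallothionein genes rose.

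Of 40 matrix, integrin and adhesion genes, 7 rose and 13 fell at 24 h, and 1 rose and 9 fell at 6 h. The higher share was 17.5% at 24 h, the level of all genes (17.6%), and 2.5% at 6 h, against 14.8%. The lower shares were 32.5% and 22.5%, against 14.6% and 10.7% of all genes. ITGA9, an integrin subunit, read 116 with A-485 against 597 and 581 with DMSO at 24 h, and 408 with A-485 against 546 and 555 with DMSO at 6 h, a difference of -2.34 ± 0.04 and -0.43 ± 0.04. Without quantile normalization, at a floor of 32, the values were -1.99 at 24 h and 0.08 at 6 h, where the call ended (adjusted p = 0.89). TIMP3, a metalloproteinase inhibitor, fell, with -1.92 at 24 h, and CD44, the hyaluronan receptor, with -1.11 and -0.50. COL1A2, a collagen chain and fibroblast marker, rose by 0.96 at 24 h while POSTN and FAP, other fibroblast markers, fell, with -1.22 and -0.59. With the doubtful DMSO arrays left out, 4 rose and 8 fell at 24 h.

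Further lists are given by their counts, beside shares over all genes of 17.6% higher and 14.6% lower at 24 h and 14.8% higher and 10.7% lower at 6 h. Of 17 BCL2 family genes, 5 rose and 5 fell at 24 h and 2 rose and 2 fell at 6 h, with BCL2A1, a MITF target, lower, with -1.27 and -1.23. Of 25 NF-kappaB targets and cytokines, 4 rose and 4 fell at 24 h and 3 rose and 4 fell at 6 h, with NFKBIZ lower, with -1.73 and -1.16 and ICAM1 higher by 1.11 and 0.80. Of 38 interferon and antigen presentation genes, 5 rose and 7 fell at 24 h and 3 rose and 3 fell at 6 h, with the antiviral MX2 lower, with -2.38 and -1.4. Of 34 lysosome and autophagy genes, 3 rose and 12 fell at 24 h and 2 rose and 5 fell at 6 h, with SQSTM1, the autophagy receptor, lower, with -0.71 and -0.50. Of 39 oxidative phosphorylation genes, 4 rose and 7 fell at 24 h and none rose and 2 fell at 6 h. Of 15 circadian clock genes, 2 rose and 6 fell at each time, with NFIL3 lower, with -1.05 and -0.73. Of 17 histone genes, 4 rose and 1 fell at 24 h and 1 rose at 6 h, and of 16 housekeeping genes 2 rose and 3 fell at 24 h and 1 rose and 1 fell at 6 h.

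The WM2664 difference was set against the mean of the SKMEL5 and A375 differences at the same time. It differed for 2193 genes at 24 h (15.5%), 1054 higher (7.46%) and 1139 lower (8.06%), and for 1250 at 6 h (8.85%), 609 higher (4.31%) and 641 lower (4.54%). By at least 2-fold, 242 genes were higher (1.71%) and 326 lower (2.31%) at 24 h, and 108 were higher (0.764%) and 195 lower (1.38%) at 6 h. FGFR1 led at 24 h with 3.31 in WM2664, against -0.31 in SKMEL5 and -0.51 in A375, a gap of 3.71 ± 0.21 (adjusted p = 5.66e-05), and TMT1B had 3.14, against 0.97 and -0.26. ADM, adrenomedullin, was 0.92 in WM2664 against -1.55 in SKMEL5 and -1.14 in A375. ADGRG1 fell further in WM2664, with -4.43 against -0.96 and -2.88. SLC6A15, a neutral amino acid transporter, fell, with -3.02 in WM2664, against differences of -1.20 in SKMEL5 and -0.25 in A375. THEM4, a thioesterase, fell, with -2.62, against -0.74 and -0.29.

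At 6 h, PFKFB4 fell, with -2.55 in WM2664, against 0.29 in SKMEL5 and -0.78 in A375, a gap of -2.30 ± 0.19 (adjusted p = 0.000537). FXYD3, an ion transport regulator, fell, with -1.91, against -0.06 and 0.18, and SOX9 fell, with -2.88, against 0.13 and -1.4. Another FXYD3 probe set, brighter in WM2664 (mean log2 of 11.83 against 10.43), fell less there at 6 h, with -0.48. ELL2, an elongation factor, rose by 1.22 in WM2664, against 0.00 in SKMEL5 and -1.04 in A375, and CXXC5 stood at 0.63, against -0.55 and -1.43. Another ELL2 probe set, dimmer in WM2664 (mean log2 of 5.82 against 6.35), differed there by 0.26 at 6 h. MITF fell further in WM2664 than in the mean of the other lines at both times, with -0.51 ± 0.10 at 24 h (adjusted p = 0.0128) and -1.39 ± 0.10 at 6 h (adjusted p = 0.000326). MYC fell further with -1.31 ± 0.10 and -1.02 ± 0.10, and EGR1 rose further by 1.17 ± 0.15 and 0.90 ± 0.15. For MITF, MYC and EGR1 these are gaps to SKMEL5 and A375 averaged together. They do not show a gap to each of those lines. SEMA3C, a semaphorin, stood at 0.69 in WM2664, against -0.55 in SKMEL5 and -3.30 in A375, and IGFBP3 at -0.41, against -1.30 and -4.02, so their gaps at 24 h go with large falls in A375.

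**Figure D5:**
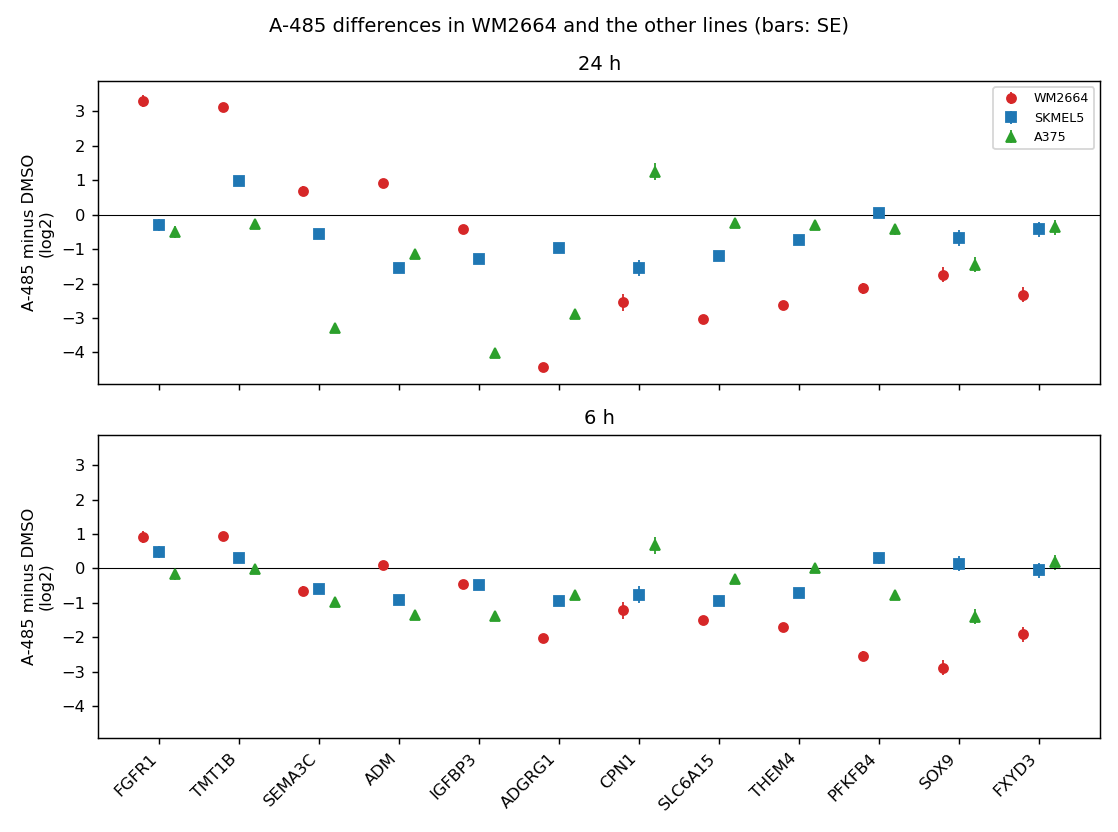
Log2 differences, A-485 minus DMSO, of 12 genes in WM2664 (red circles), SKMEL5 (blue squares) and A375 (green triangles) at 24 h (top) and 6 h (bottom), with bars for the SE. FGFR1 and TMT1B rise most in WM2664 at 24 h, PFKFB4 and FXYD3 fall there at both times, and SEMA3C and IGFBP3 fall most in A375.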

How the data were processed

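Per the labels' protocols, Qiazol lysates were purified on RNeasy columns, and the Affymetrix 3' IVT Plus kit gave biotinylated cRNA. The deposited values were linear intensities of 54613 probe sets. How they were background-corrected and scaled, and with which software, is not given in the sources used here. On a WM2664 array, 20.4% to 22.1% of intensities lay below 0, so the number of arrays and the brightness of a probe set limit the precision. The 18 arrays were quantile normalized, floored at 32 and put on the log2 scale. A gene was represented by its brightest probe set with 1 symbol, and 14130 of 19775 genes passed a filter at the 40th percentile of mean intensity. Group means were fitted with limma 3.58.1 (R 4.3.3) with Benjamini-Hochberg adjustment over all genes tested. On simulated data, 76.2% of 80 genes changed 2-fold and 90.4% of 83 changed 4-fold were called at 24 h, with 13 false calls.

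The members and the 35 gene lists (803 genes tested) were chosen with earlier results of these data known. Named genes were the 8 largest per time class above the floor and 4 at the floor, 5 per direction of the change, 5 per direction against the other lines and up to 6 called members per list, with MITF, EP300, CREBBP, MYC, EGR1 and SOX10 always. Of these, the text describes a selection made after their values were seen. A difference with a side at the floor is a bound, and one within 2-fold of the floor has no exact size. The 24 alternatives varied the scaling, floor, filter, probe sets, arrays and model. The one without the 3 doubtful DMSO arrays was chosen after seeing the data.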

Additional observations from a re-analysis of the deposited data

Results flagged for a closer look

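The A-485 difference in WM2664 changed between 24 h and 6 h for 1608 genes, and it differed from the mean of the SKMEL5 and A375 differences for 2193 genes at 24 h and 1250 at 6 h, by the test of the difference itself in limma (Benjamini-Hochberg adjusted p under 0.05). The values below are log2, and each was past that test.

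Among genes that rose at 24 h only, the difference at 24 h exceeded that at 6 h by 2.05 for SEC14L4, 2.24 for ST8SIA5, 1.44 for DUSP5, 1.11 for CXXC5, 1.49 for GSTT1 and 1.22 for CHPF2. With the other arrays at the floor, the gap was at least 2.27 for ADIRF, 1.81 for H2AC6 and 1.80 for PTPRN2. Among genes that fell at 24 h only, the gap was -2.65 for TSPAN10, -2.17 for IGFBP5, -2.37 for PMP2, -2.15 for BIRC7, -1.59 for CHST5 and -1.33 for LRP8. With A-485 at the floor at 24 h, it was -1.86 for MMP15 and -1.56 for MYB, and both could be larger.

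Among genes that rose at 6 h only, the gap was -1.37 for SLC41A1, -1.83 for TUBE1, -1.04 for LMTK2, -1.01 for ELP4, -1.55 for SASS6 and -1.02 for CCDC117. Among those that fell at 6 h only, it was 2.60 for SOX6, 1.79 for SLCO4A1, 1.65 for SERTAD4, 1.75 for SMAD3, 2.18 for SHC4, 1.82 for HMGA2 and 1.85 for SOX5.

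Genes called in opposite directions had gaps of 1.59 for NLGN4X, 1.59 for ANGPTL4, 1.60 for EMP1, 1.45 for ERRFI1 and 1.24 for SLC2A1, and of -1.33 for FAM83D, -1.13 for CENPA, -1.14 for CKS2 and -1.09 for CEP55. Genes called in the same direction at both times had gaps of 2.87 for TBX2, 2.40 for FGFR1, 2.21 for TMT1B, 1.82 for KCNN4 and 1.68 for RGS4. In the other direction the gap was -3.10 for CCN3, -3.02 for PI15, -2.97 for LINC00520, -2.41 for ADGRG1 and -2.29 for DCLK1. MITF had a gap of 1.11, MYC of 0.72 and SOX10, called at 6 h and not at 24 h, of 0.86.

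Against the mean of the other lines at 24 h, the WM2664 difference was higher by 3.71 for FGFR1, 2.79 for TMT1B, 2.61 for SEMA3C, 2.26 for ADM and 2.25 for IGFBP3, and it differed by -2.51 for ADGRG1, -2.29 for SLC6A15 and -2.10 for THEM4. At 6 h it was higher by 1.74 for ELL2 and 1.62 for CXXC5, and it differed by -2.30 for PFKFB4, -2.24 for SOX9 and -1.96 for FXYD3. Another probe set of FXYD3 fell less in WM2664 at 6 h, with -0.48, and another of ELL2 stood less high there, at 0.26.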

How the results depend on the processing

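Of the 24 alternatives, the deposited scale and the WM2664 arrays alone moved most counts by over 1.5 times. Without normalization, at a floor of 32, 1339 genes were called at 24 h, 77 for the change between times, 1 for DMSO of 24 h against 6 h, and 402 at 24 h and 231 at 6 h against the other lines, with 721 genes called at both times, 33 at 24 h only and 27 at 6 h only. With a floor of 1 these counts were 503, 45, 11, 79, 18, 134, 27 and 11, and 511 genes were called at 6 h. ERRFI1, ITGA9, NLGN4X, POSTN and SLC2A1 then turned positive at 6 h, to 0.03, 0.08, 0.25, 0.18 and 0.18 with either floor, and TFAP2B turned to 0.69 at 6 h and -0.76 for the change with a floor of 1. Of the named calls, 71 of 257 ended without normalization at a floor of 32, and 138 of 252 with a floor of 1. A floor of 16 after quantile normalization gave 1005 genes for the change, 87 for DMSO, 1347 at 24 h and 599 at 6 h against the other lines, and 228 at 6 h only. The cause of these moves was not tested.

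The WM2664 arrays alone, with fewer arrays to give the spread, called 2868 genes at 24 h, 2039 at 6 h and 778 for the change, with 1298 at both times, 271 at 24 h only and 150 at 6 h only. They called 0 in limma for DMSO, where 2257 genes had an unadjusted p under 0.05. The DMSO count of 312 was 200 with 75th percentile scaling, 204 without cross-hybridizing probe sets and 565 without the 3 doubtful DMSO arrays. Leaving out 1 DMSO array gave 3894 to 4682 calls at 24 h, 2877 to 3731 at 6 h, 1347 to 1779 for the change and 180 to 436 for DMSO. The lowest DMSO counts came without the SKMEL5 arrays of 6 h (180 each), the second WM2664 array of 6 h (187) and the A375 arrays of 6 h (193 each). Same-numbered DMSO samples did not deviate together (correlations of -0.04 to 0.06), so the numbers were not taken as pairs, and the replicate block gave 4225 calls at 24 h, 3239 at 6 h and 173 for DMSO. The brightness of a probe set limits the sizes of genes near the floor of 32.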
